A study of Mus musculus with 12 samples.

Results

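The genes described here are 40 genes of glycolysis and of the cellular response to low oxygen, followed in the punched and the uninjured mouse ear. They were chosen by name, and each was read through every array probe annotated with its current or an older symbol. Of the 40 genes, 36 had a named probe, and all 36 were tested, through 63 probes that all passed the filter on dim probes. Hk2, Gpi1, Eno1 and Bnip3 had no named probe and were not analysed here. The whole series held 45281 probes, which gave 24690 tested features, 14218 of them named genes.

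RNA from the ears of LG/J and SM/J, a pair of inbred mouse strains, was hybridised to Illumina bead arrays in 4 groups of 3 arrays. The groups were LG/J tissue beside an ear punch made 7 days earlier, uninjured LG/J ear, SM/J tissue beside an ear punch made 7 days earlier, and uninjured SM/J ear. The study's title names healing and regeneration in these strains as its subject. The labels name no mutation, transgene or treatment other than the punch, and they give no age. They do not say whether the arrays of a group came from separate animals, so the p-values measure the spread between these arrays, which may be technical.

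Glycolysis breaks glucose down to pyruvate in the cytoplasm, and lactate dehydrogenase can turn the pyruvate into lactate, which leaves the cell through monocarboxylate transporters. In cells with enough oxygen, the EGLN prolyl hydroxylases mark the HIF alpha subunits, encoded by Hif1a and Epas1, for destruction by the von Hippel-Lindau protein. At low oxygen the subunits persist, bind DNA at short motifs and raise the transcription of glucose transporters, glycolytic enzymes, carbonic anhydrases and angiogenic factors. HIF alpha is controlled mainly at the level of the protein, which arrays do not measure. Wounds are known to have poorly perfused tissue and to draw in leukocytes that rely on glycolysis.

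Levels are given as log2 normalized intensities, one value for each array, and differences are on the same log2 scale. A level ranks arrays for 1 probe and does not rank genes, since probes differ in brightness. A gene was represented by its brightest probe, and a difference was called at a Benjamini-Hochberg adjusted p under 0.05 in limma. The limit of background signal lay between 5.75 and 5.83 on the 12 arrays, and between 52.4% and 55.0% of all probes lay above it. Of the members, 5 had a representative probe that was below this limit on at least 1 array, namely Slc16a1, Slc16a3, Hif1a, Epas1 and Egln1. Markers of keratinocytes, fibroblasts and cartilage, fixed as lists, were detected in all groups.

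A pair of arrays stood apart from their groups. On the first principal component, which separated the strains, uninjured LG/J replicate 4 lay at 2.01, whereas the other uninjured LG/J arrays lay at -51.9 and -49.6 and the uninjured SM/J arrays lay between 30.6 and 51.8. In uninjured SM/J replicate 2 the summed intensity of 15 skeletal muscle markers was 172380, whereas it was 74516 and 82863 in the other uninjured SM/J arrays. Values with and without these arrays are given for the called members that they move and for the members whose call was gained when either was left out.

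Around the ear punch, carbonic anhydrases, the oxygen sensor gene Egln3, Ankrd37 and the late glycolytic enzymes Pgk1 and Pkm rose in both strains, and Pfkm and Aldoc fell in both. The largest rise was that of Car12, which was 2.20-fold higher at day 7 in LG/J and 2.48-fold higher in SM/J. Most other members, among them Vegfa and Hif1a, did not pass the test in either strain. In LG/J 6 of the 36 tested members rose and 2 fell, which is 22.2% called, beside 10.4% of all features (5.44% higher and 4.95% lower). In SM/J 10 members rose and 3 fell, which is 36.1%, beside 10.3% of all features (5.66% higher and 4.61% lower). All features include unnamed probes and probes at background, whereas most members lay above the background limit on every array. The shares here and below were not matched for level. Injured and uninjured arrays did not overlap for 18 of 36 members in LG/J (beside 28.8% of all features) and for 23 of 36 in SM/J (beside 31.9%). The median change of the members was 0.05 in LG/J and 0.14 in SM/J, where the median over all features was -0.00 in both. All 6 members that rose in LG/J were among the 10 that rose in SM/J, and both that fell in LG/J were among the 3 that fell in SM/J. In this bulk tissue, fewer cells of a type and less RNA per cell cannot be told apart.

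**Figure D1:**
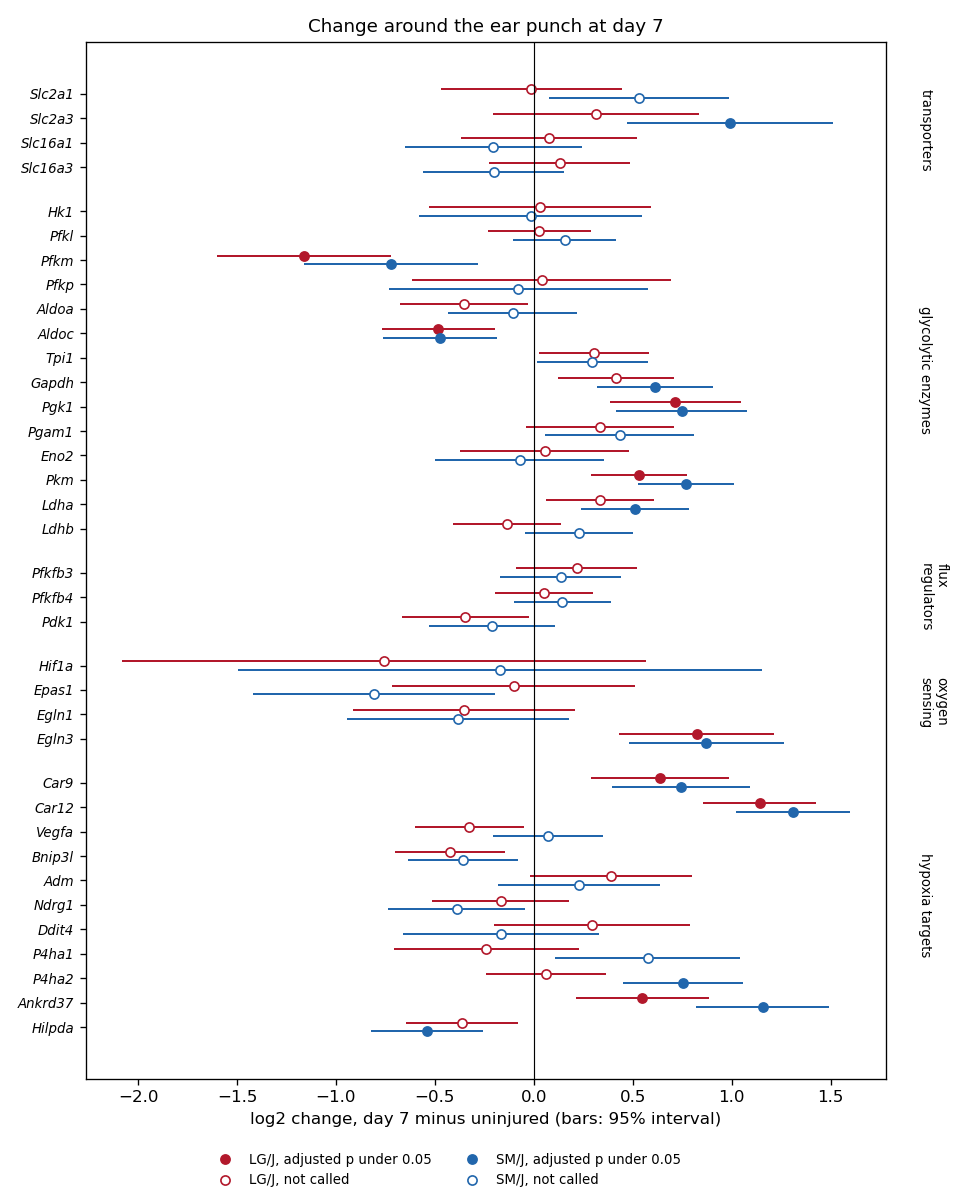
Log2 change of the 36 tested members, day 7 minus uninjured, in LG/J (red) and SM/J (blue), grouped by role; points are limma estimates, bars are 95% intervals, and filled points have an adjusted p under 0.05. Car12 lies farthest to the right in both strains, at 1.14 in LG/J and 1.31 in SM/J, and Pfkm is the lowest point in LG/J, at -1.16.

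Car12 and Car9 encode carbonic anhydrases of the cell surface, which help cells to clear acid. Car12 had levels of 11.59, 11.38 and 11.39 on the LG/J day 7 arrays, against 10.30, 10.20 and 10.44 in uninjured LG/J ear. In SM/J it had levels of 11.18, 11.23 and 11.32 at day 7, against 9.70, 10.02 and 10.08 in uninjured ear. Every injured array lay above every uninjured array of its strain. The change was 1.14 in LG/J (SE 0.13, limma adjusted p = 0.000118) and 1.31 in SM/J (SE 0.13, limma adjusted p = 2.58e-05). A second, dimmer Car12 probe gave 1.21 and 1.17 in LG/J and SM/J.

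Car9 had LG/J levels of 7.75, 7.40 and 7.36 at day 7, against 7.00, 7.06 and 6.54 in uninjured ear. SM/J levels were 7.20, 7.14 and 6.90 at day 7, against 6.38, 6.25 and 6.38 in uninjured ear. The injured and uninjured arrays did not overlap in either strain. The rise was 0.64 in LG/J (SE 0.16, limma adjusted p = 0.0227) and 0.74 in SM/J (SE 0.16, limma adjusted p = 0.00964). The LG/J call did not survive the omission of LG/J day 7 replicate 1 or uninjured replicate 4, and over the 12 fits that each left out 1 array the LG/J change lay between 0.47 and 0.73.

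Ankrd37, an ankyrin repeat gene known as a HIF target, had levels of 8.45, 8.42 and 8.25 at day 7 in LG/J, against 7.82, 7.97 and 7.68 in uninjured LG/J ear. In SM/J its levels were 8.49, 9.03 and 8.60 at day 7, against 7.68, 7.38 and 7.59 in uninjured ear. Both strains showed complete separation of injured from uninjured arrays. The change was 0.55 in LG/J (SE 0.16, limma adjusted p = 0.0394) and 1.16 in SM/J (SE 0.16, limma adjusted p = 0.000315). The LG/J call sat near the threshold and was lost in 7 of the 12 fits that left out 1 array, which omitted a day 7 LG/J array, replicate 1 or 4 of uninjured LG/J, replicate 3 of day 7 SM/J or replicate 5 of uninjured SM/J, with changes between 0.48 and 0.62. The SM/J call was kept in all 12.

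Egln3 encodes an oxygen-dependent prolyl hydroxylase that acts on HIF alpha and is itself a HIF target. Its levels were 11.29, 10.93 and 11.02 at day 7 in LG/J, against 10.44, 10.44 and 9.90 in uninjured LG/J ear, and the groups did not overlap. SM/J had 10.86, 11.19 and 11.09 at day 7, against 10.45, 9.95 and 10.12 in uninjured ear, again without overlap. The change was 0.82 in LG/J (SE 0.18, limma adjusted p = 0.0105) and 0.87 in SM/J (SE 0.18, limma adjusted p = 0.00739). Without LG/J day 7 replicate 1 the LG/J call was lost, and the range over the fits without 1 array was 0.64 to 0.91. Of the other Egln3 probes, both near background, one gave -0.09 in LG/J and -0.27 in SM/J and the other gave 0.19 and 0.60, and the average of all 3 probes was not called, with 0.31 and 0.40. Egln1, the main HIF hydroxylase of most tissues, did not pass the test, with -0.35 in LG/J and -0.38 in SM/J.

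**Figure D2:**
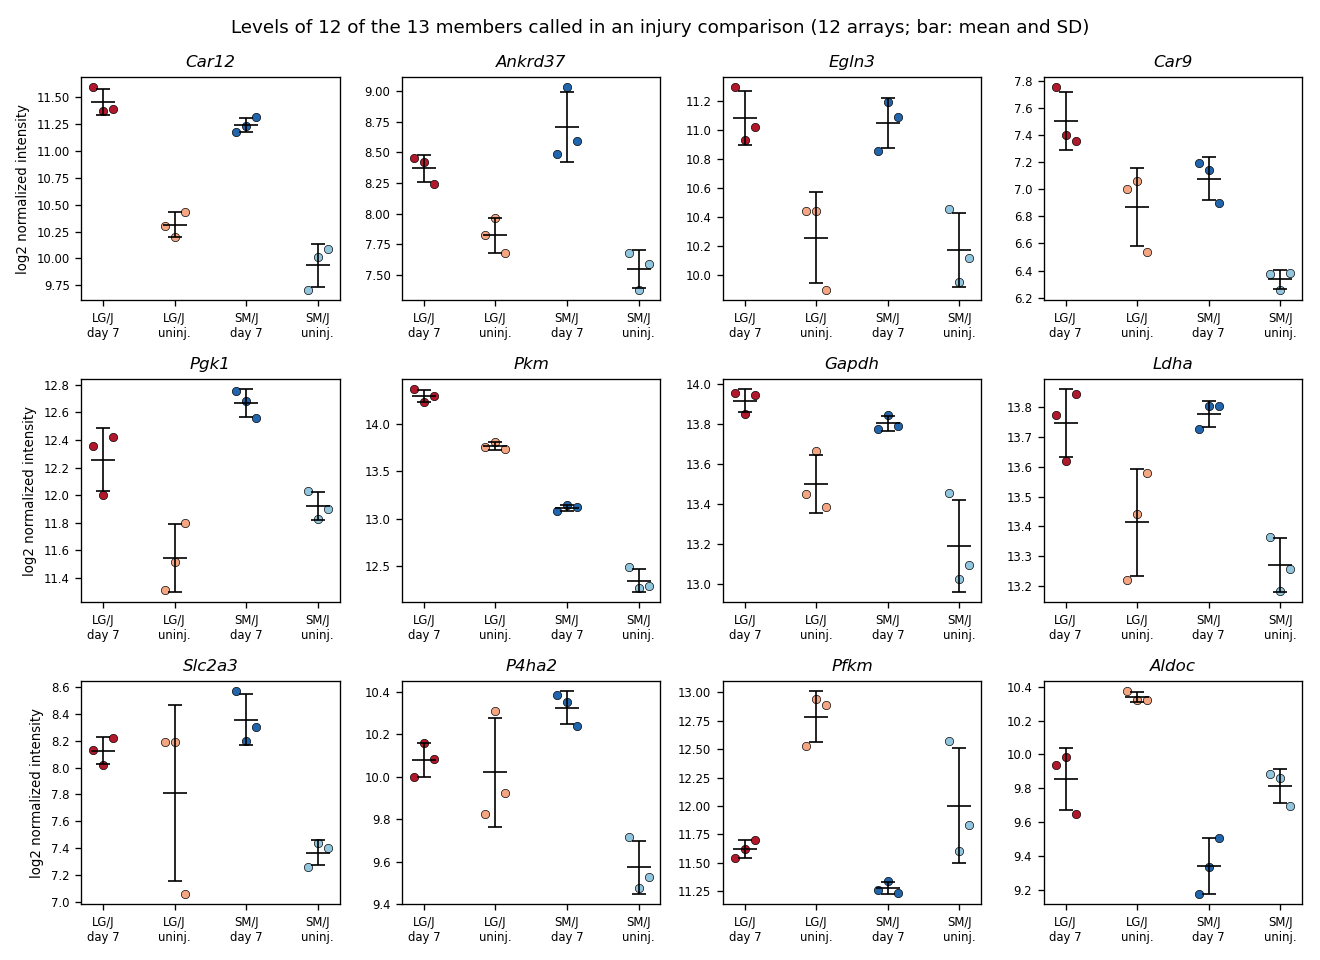
Log2 normalized intensity of 12 of the 13 members called in an injury comparison, on each of the 12 arrays by group; points are arrays, long ticks are group means and bars are SD (n = 3). Day 7 points lie above the uninjured points of the same strain for Car12, Ankrd37, Egln3, Car9, Pgk1 and Pkm, and below them for Pfkm and Aldoc.

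Pgk1 and Pkm act in the later steps of glycolysis that yield ATP. Pgk1, the phosphoglycerate kinase gene, had levels of 12.36, 11.998 and 12.42 at day 7 in LG/J, against 11.31, 11.51 and 11.80 in uninjured LG/J ear. In SM/J the levels were 12.76, 12.68 and 12.56 at day 7, against 12.03, 11.83 and 11.90 in uninjured ear. No injured array overlapped the uninjured arrays of its strain. The rise was 0.72 in LG/J (SE 0.15, limma adjusted p = 0.00904) and 0.75 in SM/J (SE 0.15, limma adjusted p = 0.00674). A second Pgk1 probe lay near background and gave -0.28 and -0.03 in LG/J and SM/J, and with all probes of the gene averaged the changes were 0.22 and 0.36 and neither was called.

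Pkm encodes pyruvate kinase of muscle and most other tissues. Its levels were 14.37, 14.23 and 14.29 at day 7 in LG/J, against 13.76, 13.81 and 13.73 in uninjured LG/J ear. SM/J had 13.08, 13.14 and 13.13 at day 7, against 12.49, 12.26 and 12.28 in uninjured ear. Replicates lay close together, and the injured arrays were higher in both strains. The change was 0.53 in LG/J (SE 0.11, limma adjusted p = 0.0084) and 0.77 in SM/J (SE 0.11, limma adjusted p = 0.000616). A second Pkm probe near background gave -0.04 in LG/J and 0.31 in SM/J, and with both probes averaged the LG/J change was 0.25 and not called. Genes such as Pgk1, Pkm, Gapdh, Ldha, Tpi1 and Pgam1 have pseudogenes or close relatives, and which transcripts their probes detect was not tested.

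Gapdh, Ldha, Slc2a3 and P4ha2 were called higher in SM/J and did not pass the test in LG/J. Gapdh, a glycolytic dehydrogenase often used as a loading control, had SM/J levels of 13.77, 13.85 and 13.79 at day 7, against 13.45, 13.02 and 13.09 in uninjured ear. In LG/J it had 13.95, 13.85 and 13.94 at day 7, against 13.45, 13.66 and 13.39 in uninjured ear. The injured arrays were higher in both strains, by 0.61 in SM/J (SE 0.14, limma adjusted p = 0.0105) and by 0.42 in LG/J (SE 0.14, limma adjusted p = 0.0694). Ldha, the lactate dehydrogenase subunit that predominates in glycolytic tissue, had SM/J levels of 13.73, 13.80 and 13.80 at day 7, against 13.36, 13.18 and 13.26 in uninjured ear. Its LG/J levels were 13.77, 13.62 and 13.85 at day 7, against 13.22, 13.44 and 13.58 in uninjured ear. Neither strain showed overlap, and the change was 0.51 in SM/J (limma adjusted p = 0.0201) and 0.33 in LG/J (limma adjusted p = 0.118). The SM/J call of Gapdh was lost without uninjured replicate 4 or 5 (range over the fits without 1 array 0.53 to 0.74), and that of Ldha without any 1 of the day 7 arrays or uninjured replicate 4 or 5 (0.47 to 0.56).

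Slc2a3 encodes a glucose transporter of high affinity found on neurons and leukocytes. In SM/J its levels were 8.57, 8.20 and 8.30 at day 7, against 7.26, 7.44 and 7.40 in uninjured ear. In LG/J they were 8.13, 8.02 and 8.22 at day 7, against 8.19, 8.19 and 7.06 in uninjured ear, where replicate 4 is the low value. The SM/J rise was 0.99 (SE 0.24, limma adjusted p = 0.0182), and it fell short of the threshold when SM/J day 7 replicate 1 or any 1 of the uninjured SM/J arrays was left out (0.89 to 1.07). The LG/J change was 0.31 with all arrays and -0.06 without uninjured LG/J replicate 4 (limma adjusted p = 0.473 and 0.831). Slc2a1, the basal glucose transporter of most cells, did not pass the test in either strain, with -0.01 in LG/J and 0.53 in SM/J, and without uninjured LG/J replicate 4 these were 0.31 and 0.53 (limma adjusted p = 0.134 and 0.00493).

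P4ha2, a catalytic subunit of the hydroxylase that matures collagen, had SM/J levels of 10.38, 10.35 and 10.24 at day 7, against 9.72, 9.47 and 9.53 in uninjured ear. In LG/J the levels were 10.00, 10.16 and 10.08 at day 7, against 9.82, 10.31 and 9.92 in uninjured ear. The SM/J groups were separate and the LG/J groups overlapped. The change was 0.75 in SM/J (SE 0.14, limma adjusted p = 0.00355) and 0.06 in LG/J (limma adjusted p = 0.846).

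Of the 11 tested hypoxia targets, 3 rose in LG/J, and 4 rose and 1 fell in SM/J. That is 27.3% and 45.5% called, beside 10.4% and 10.3% of all features. The shares were 28.6% and 42.9% for 14 glycolytic enzymes and 0% and 25% for 4 transporters. They were 25% in each strain for 4 oxygen sensing genes and 0% in each for 3 flux regulators. Hilpda, a lipid droplet protein that restrains lipolysis, was the hypoxia target that fell. Its SM/J levels were 12.40, 12.15 and 12.15 at day 7, against 12.58, 12.84 and 12.90 in uninjured ear, a change of -0.54 (limma adjusted p = 0.0181). In LG/J the levels were 12.03, 11.90 and 12.03 at day 7, against 12.27, 12.31 and 12.48 in uninjured ear, a change of -0.36 (limma adjusted p = 0.0991). The injured arrays lay below the uninjured ones in both strains. The SM/J call did not survive the omission of SM/J day 7 replicate 2 or 3 or uninjured replicate 4 or 5 (-0.64 to -0.47).

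Vegfa, the angiogenic growth factor and a classical HIF target, did not pass the test, and its probes differed in direction in LG/J. By the brightest probe its levels were 9.28, 9.14 and 9.45 at day 7 in LG/J, against 9.57, 9.69 and 9.59 in uninjured LG/J ear, a difference of -0.33 (95% interval -0.60 to -0.05, limma adjusted p = 0.131). In SM/J they were 9.66, 9.40 and 9.55 at day 7, against 9.33, 9.52 and 9.56 in uninjured ear, a difference of 0.07 (95% interval -0.21 to 0.35). A second, dimmer probe, above the background limit on all 12 arrays, gave 0.28 in LG/J and 0.31 in SM/J, without overlap in either (limma adjusted p = 0.205 and 0.15 in a fit with every probe as a feature). Bnip3l, a mitophagy receptor, had -0.42 in LG/J and -0.36 in SM/J (limma adjusted p = 0.0542 and 0.101). The 13 members that were called in no comparison ranged from -0.42 (Bnip3l) to 0.39 (Adm) in LG/J and from -0.39 (Ndrg1) to 0.43 (Pgam1) in SM/J.

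Epas1, which encodes a HIF alpha subunit, had the lowest change of any member in SM/J, -0.81 (95% interval -1.42 to -0.20, limma adjusted p = 0.0923), and every injured SM/J array lay below every uninjured one, while its LG/J change was -0.10. A second Epas1 probe near background gave -0.01 in SM/J. Without uninjured LG/J replicate 4, which leaves the SM/J changes as they are, Epas1, Ndrg1 and P4ha1 were called in SM/J, at -0.81, -0.39 and 0.57 (limma adjusted p = 0.0157, 0.0475 and 0.0216). Without uninjured SM/J replicate 2, Gapdh was called in LG/J at its 0.42 (limma adjusted p = 0.0374). Without both arrays, Pgam1, Ldha and P4ha1 were called in LG/J, at 0.45, 0.42 and -0.51. In SM/J that setting called Tpi1, Hif1a and Bnip3l, at 0.38, -0.58 and -0.42.

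The members that fell in both strains were Pfkm, the muscle form of phosphofructokinase, and Aldoc, the brain form of aldolase. Pfkm had levels of 11.54, 11.63 and 11.70 at day 7 in LG/J, against 12.53, 12.94 and 12.88 in uninjured LG/J ear. In SM/J its levels were 11.26, 11.34 and 11.24 at day 7, against 12.57, 11.60 and 11.83 in uninjured ear. All injured arrays were lower than the uninjured ones of their strain, and uninjured SM/J replicate 2 was high. The change was -1.16 in LG/J (SE 0.20, limma adjusted p = 0.00271) and -0.72 in SM/J (SE 0.20, limma adjusted p = 0.0384). Without uninjured SM/J replicate 2 the SM/J change was -0.44 (limma adjusted p = 0.0921). The SM/J call also did not survive the omission of any 1 of the 6 day 7 arrays or of SM/J uninjured replicate 5, and its changes reached -0.92. A second Pfkm probe gave -1.26 in LG/J and -0.71 in SM/J, the dimmest gave -0.36 and -0.32, and the average of the 3 was not called in SM/J, at -0.58.

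Skeletal muscle markers moved with Pfkm. The summed intensity of the 15 tested markers, which include Ckm, Acta1 and Mb, ranged from 76213 to 90823 at day 7 in LG/J, against 140960 to 204190 in uninjured LG/J ear. In SM/J it ranged from 59955 to 64813 at day 7, against 74516 to 172380 in uninjured ear. Of these markers, 11 fell in LG/J and 2 fell in SM/J, none rose, and none was below the background limit on all arrays. The part of muscle RNA in the fall of Pfkm was not tested. Pkm rose while these markers fell, and Aldoa, the aldolase of muscle and most tissues, had -0.35 in LG/J and -0.11 in SM/J (limma adjusted p = 0.162 and 0.74).

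**Figure D3:**
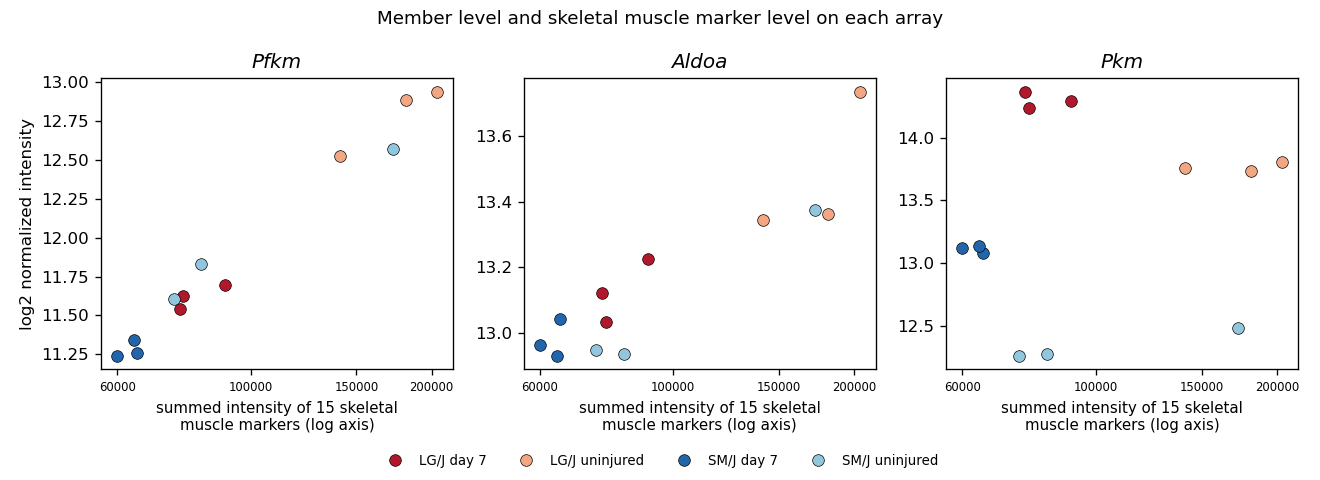
Log2 normalized intensity of Pfkm, Aldoa and Pkm (vertical axes) against the summed intensity of 15 skeletal muscle markers (horizontal log axis), 1 point for each of the 12 arrays, coloured by group. The uninjured SM/J array with a marker sum of 172380 lies among the uninjured LG/J arrays for Pfkm, and Pkm is ordered by strain and injury instead.

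Aldoc had levels of 9.94, 9.98 and 9.65 at day 7 in LG/J, against 10.37, 10.32 and 10.32 in uninjured LG/J ear. Its SM/J levels were 9.17, 9.33 and 9.51 at day 7, against 9.88, 9.86 and 9.69 in uninjured ear. The groups did not overlap in either strain. The change was -0.48 in LG/J (SE 0.13, limma adjusted p = 0.0337) and -0.47 in SM/J (SE 0.13, limma adjusted p = 0.0373). The LG/J call did not survive the omission of LG/J day 7 replicate 1 or 3 or uninjured replicate 1 or 3 (-0.55 to -0.38), and the SM/J call that of LG/J day 7 replicate 1, SM/J day 7 replicate 1 or 2, or any 1 of the uninjured SM/J arrays (-0.56 to -0.39). Schwann cell and adipocyte markers also fell beside the punch, with 4 of 5 Schwann cell markers falling in each strain and 2 of 6 adipocyte markers falling in LG/J and 6 of 6 in SM/J. Of 8 cartilage markers, 3 fell and 1 rose in LG/J, and 5 fell and 1 rose in SM/J.

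Markers of leukocytes, of wound-edge keratinocytes and, in part, of endothelium moved with the members that rose. The summed intensity of 7 neutrophil markers ranged from 13690 to 20542 at day 7 in LG/J, against 1189 to 1401 in uninjured LG/J ear, and from 53144 to 59709 at day 7 in SM/J, against 2670 to 3903 in uninjured SM/J ear. Such a sum weighs the brightest probes most. The mean log2 level of these neutrophil markers was 8.78 at day 7 and 7.14 in uninjured ear in LG/J. In SM/J it was 9.15 and 7.11. The sum of 9 macrophage markers ranged from 16702 to 23930 at day 7 in LG/J, against 6345 to 13191 in uninjured LG/J ear. In SM/J that sum ranged from 22697 to 26378 at day 7, against 11727 to 13959 in uninjured ear. The sum of 8 wound-edge keratinocyte markers ranged from 117270 to 136040 at day 7 in LG/J, against 17260 to 24280 in uninjured LG/J ear. In SM/J the keratinocyte sum ranged from 114480 to 127270 at day 7, against 16921 to 19397 in uninjured ear. These lists rose in 4 of 7, 6 of 9 and 7 of 8 markers in LG/J, where 1 neutrophil marker fell, and in 6 of 7, 3 of 9 and 7 of 8 in SM/J. Of 7 endothelial markers, 3 rose in each strain and none fell. Of 8 general keratinocyte markers, 2 rose and 2 fell in LG/J, and 2 rose in SM/J. No fibroblast or erythrocyte marker was called in either strain. None of the genes of these lists was below the background limit on all arrays, and the part of these cell types in the rise of the members was not tested.

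The share of rises among the calls depended on how arrays were scaled to each other. When the arrays were only brought to a common median, in place of quantile normalization, 30.1% of all LG/J calls were rises, beside 52.3% in the quantile fit, and 27.7% of all SM/J calls, beside 55.1%. No called member changed direction. In LG/J only Car12 of the 6 risers stayed called, at 1.02, and in SM/J Pkm, Car9, Car12 and Ankrd37 stayed called, at 0.66, 0.65, 1.03 and 0.85.

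The promoters of the risers were read to see whether members that moved together share the core letters of the HIF motif. Windows from 250 bases before to 50 after the start site were taken from RefSeq, build GRCm38.p6, and searched for ACGTG and GCGTG on both strands. On the other strand these read CACGT and CACGC, and matches may overlap, as in CACGCGTG. The 5 promoters below belong to genes that rose in both strains. They are shown in the direction of transcription, in lower case with each match in capitals.
Car12: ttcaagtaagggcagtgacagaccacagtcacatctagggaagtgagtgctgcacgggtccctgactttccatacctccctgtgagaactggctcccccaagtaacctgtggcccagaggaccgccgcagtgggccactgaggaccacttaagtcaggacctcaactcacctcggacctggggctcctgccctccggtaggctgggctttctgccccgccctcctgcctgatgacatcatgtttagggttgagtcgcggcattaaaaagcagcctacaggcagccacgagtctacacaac
Car9: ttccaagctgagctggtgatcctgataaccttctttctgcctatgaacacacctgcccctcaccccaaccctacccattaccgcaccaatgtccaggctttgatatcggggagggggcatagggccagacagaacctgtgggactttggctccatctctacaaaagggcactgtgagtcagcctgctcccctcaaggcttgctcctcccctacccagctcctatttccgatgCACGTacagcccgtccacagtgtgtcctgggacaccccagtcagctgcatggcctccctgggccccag
Ankrd37: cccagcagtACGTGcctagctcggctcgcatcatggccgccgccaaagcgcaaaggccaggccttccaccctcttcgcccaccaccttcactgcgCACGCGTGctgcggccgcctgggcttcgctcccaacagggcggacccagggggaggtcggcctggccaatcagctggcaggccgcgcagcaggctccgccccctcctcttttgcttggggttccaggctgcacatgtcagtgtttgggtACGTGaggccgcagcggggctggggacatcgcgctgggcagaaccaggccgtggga
Egln3: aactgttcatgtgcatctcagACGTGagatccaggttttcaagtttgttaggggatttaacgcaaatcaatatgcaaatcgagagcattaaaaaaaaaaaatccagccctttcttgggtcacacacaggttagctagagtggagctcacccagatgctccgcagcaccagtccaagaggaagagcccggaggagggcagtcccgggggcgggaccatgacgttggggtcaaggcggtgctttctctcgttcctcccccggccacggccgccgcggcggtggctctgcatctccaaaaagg
Pgk1: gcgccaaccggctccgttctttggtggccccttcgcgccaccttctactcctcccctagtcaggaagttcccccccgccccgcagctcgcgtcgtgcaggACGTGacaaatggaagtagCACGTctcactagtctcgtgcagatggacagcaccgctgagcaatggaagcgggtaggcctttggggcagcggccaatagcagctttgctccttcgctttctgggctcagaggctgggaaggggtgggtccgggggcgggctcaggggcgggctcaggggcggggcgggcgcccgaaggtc

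These windows are, on GRCm38.p6, chr9:66713436-66713735 on the plus strand for Car12, chr4:43506776-43507075 on the plus strand for Car9, and chr8:45999801-46000100 on the minus strand for Ankrd37. They are chr12:54203825-54204124 on the minus strand for Egln3 and chrX:106186850-106187149 on the plus strand for Pgk1. Car12, the member with the largest rise, had no match in its window, Car9 and Egln3 had 1 each, Pgk1 had 2 and Ankrd37 had 4. The Car12 window lies inside the annotated gene, which starts at chr9:66712296. The Ankrd37 window lies inside a minus-strand gene that reaches chr8:46000414. Neither of these outermost gene ends was searched, so the counts for Car12 and Ankrd37 hold for the printed windows only. Pkm had a pair of listed promoters, with 0 and 2 matches. Members that fell held matches as well. The listed promoters had 3 and 1 matches for Aldoc, 3, 2, 1 and 0 for Pfkm, and 1 and 3 for Hilpda. Matches were thus found in members of either direction, and the share below covers members whatever their change. Of the tested members, 32 had promoters in the table, and 36 of their 45 promoters (80%) held either motif, beside 56.7% of the 14384 promoters of tested genes and 43.8% of all 32851 promoters. Member promoters had a median of 18 CpG per window, as did promoters of tested genes, against 7 for all promoters. These matches describe letters only, and binding was not measured.

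The test of whether the injury response of a member differed between the strains was the interaction term, the LG/J change minus the SM/J change. None of the 36 members was called, beside 0.425% of all features (0.0527% higher and 0.373% lower), and with the authors' deposited normalized table in place of the per-array intensities none was called either. At an unadjusted p under 0.05 there were 4 members, beside 8.83% of all features. The lowest adjusted p belonged to P4ha2, whose LG/J change was smaller by 0.69 on the log2 scale (95% interval of the difference -1.12 to -0.26, limma adjusted p = 0.18). The interval was -0.58 to 0.24 for Car12, -0.60 to 0.51 for Egln3 and -0.50 to 0.44 for Pgk1. For Ankrd37 the difference was -0.61 (95% interval -1.08 to -0.13, limma adjusted p = 0.355).

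The arrays that stand apart bear on this test. Without uninjured LG/J replicate 4 the difference of Slc2a3 was called, at -1.06 (limma adjusted p = 0.0321), beside -0.68 with all arrays (limma adjusted p = 0.622). Without both arrays that stand apart 4 members were called, while the calls over all 24690 features went from 105 to 1245. Slc2a3 then had -1.005, P4ha1 had -1.26, P4ha2 had -0.81 and Epas1 had 1.29 (limma adjusted p = 0.0103, 0.00453, 0.0415 and 0.0198). P4ha1, the sister subunit of P4ha2, had levels of 7.45, 7.35 and 7.27 at day 7 in LG/J, against 7.75, 7.996 and 7.05 in uninjured LG/J ear. Its SM/J levels were 7.59, 7.62 and 7.27 at day 7, against 7.26, 6.77 and 6.72 in uninjured ear. Replicate 4 was the low uninjured LG/J array for both Slc2a3 and P4ha1. A second P4ha1 probe gave 0.03 for this term with all arrays, beside -0.81 by the brightest probe.

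Between the strains, by the brightest probe of each gene, LG/J had higher Pkm, Eno2, Pfkl, Aldoc and Tpi1 and lower Pdk1, Hif1a and Egln1. This held in injured and in uninjured ear alike. Other probes of Pkm, Pfkl, Aldoc, Tpi1, Hif1a and Egln1 gave smaller or opposite differences, as given below, and Eno2 had only 1 named probe. Which transcripts or alleles the probes of these genes detect in each strain was not tested. Pkm had the lowest adjusted p of the members, with LG/J 2.27-fold higher at day 7 and 2.68-fold higher in uninjured ear. At day 7, 5 of 36 members were higher and 3 lower in LG/J, which is 22.2%, beside 24.6% of all features (14.1% higher and 10.5% lower), a share near that of all features. In uninjured ear 10 were higher and 6 lower, which is 44.4%, beside 19.8% of all features (11.5% higher and 8.27% lower). The strains did not overlap for 23 members at day 7 (63.9%, beside 47.4% of all features) and for 17 in uninjured ear (47.2%, beside 28.7%). All 8 members called at day 7 were called in the same direction in uninjured ear, with 5 of 5 and 5 of 10 among the higher and 3 of 3 and 3 of 6 among the lower. The median difference of the members was 0.02 at day 7 and 0.15 in uninjured ear, where the medians of all features were 0.08 and 0.07. The strain comparisons use the same arrays as the injury comparisons.

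**Figure D4:**
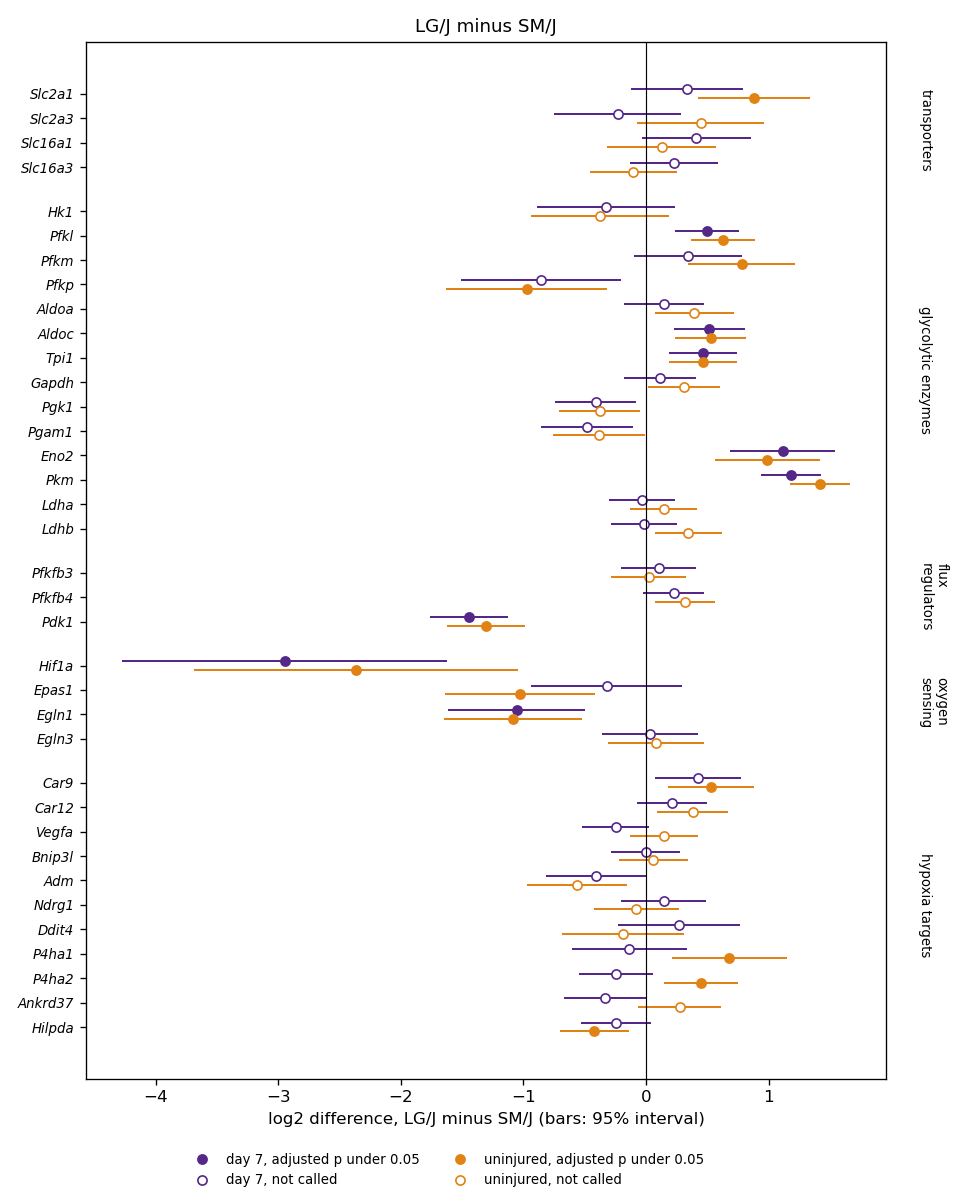
Log2 difference between LG/J and SM/J for the 36 tested members, at day 7 (purple) and in uninjured ear (orange), grouped by role; points are limma estimates, bars are 95% intervals, and filled points have an adjusted p under 0.05. Pkm lies farthest to the right, at 1.18 at day 7 and 1.42 in uninjured ear, and Hif1a farthest to the left, at -2.95 and -2.36, with wide bars.

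The Pkm levels given above set the strains apart without overlap, since the lowest LG/J array, at 13.73, was uninjured and still lay above the highest SM/J array, at 13.14, which was injured. The strain difference was 1.18 at day 7 (SE 0.11, limma adjusted p = 9.99e-06) and 1.42 in uninjured ear (SE 0.11, limma adjusted p = 1.63e-06). A second Pkm probe near background gave 0.44 and 0.79, and it was below the limit on all SM/J arrays.

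Eno2, the neuronal enolase gene, had day 7 levels of 8.62, 8.64 and 8.84 in LG/J, against 7.42, 7.67 and 7.66 in SM/J. In uninjured ear the levels were 8.91, 8.97 and 8.06 in LG/J, against 7.66, 7.63 and 7.68 in SM/J. All LG/J arrays were higher, and uninjured LG/J replicate 4 was the one nearest to SM/J. The difference was 1.12 at day 7 (SE 0.20, limma adjusted p = 0.00165) and 0.99 in uninjured ear (SE 0.20, limma adjusted p = 0.00412). Without replicate 4 the uninjured difference was 1.28.

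Phosphofructokinase, the enzyme that commits sugar to glycolysis, is built from subunits of 3 genes, and these differed between the strains in different ways. Pfkl, the liver form, had day 7 levels of 10.64, 10.72 and 10.80 in LG/J, against 10.15, 10.20 and 10.33 in SM/J. Uninjured levels were 10.55, 10.75 and 10.78 in LG/J, against 10.08, 9.96 and 10.17 in SM/J. By this brightest probe LG/J was higher without overlap in both, by 0.50 and 0.63 (limma adjusted p = 0.0103 and 0.00322). A second, dimmer Pfkl probe, above the background limit on all arrays, gave 0.20 at day 7 and 0.21 in uninjured ear. Neither was called in a fit with every probe as a feature (limma adjusted p = 0.309 and 0.32), and its uninjured groups overlapped. With both Pfkl probes averaged, both calls were kept. Pfkp, the platelet form, lay the other way, with day 7 levels of 9.01, 8.83 and 8.72 in LG/J, against 9.49, 9.79 and 9.85 in SM/J. In uninjured ear Pfkp had 8.22, 8.55 and 9.67 in LG/J, against 9.28, 10.02 and 10.06 in SM/J, where LG/J replicate 4 overlapped the SM/J arrays. The difference was -0.85 at day 7 (limma adjusted p = 0.0554) and -0.97 in uninjured ear (limma adjusted p = 0.0379).

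The uninjured call of Pfkp sat near the threshold and was lost in 9 of the 12 fits that left out 1 array (-1.40 to -0.68). It was kept only without uninjured LG/J replicate 4, uninjured SM/J replicate 2 or SM/J day 7 replicate 1. Omitting a day 7 array leaves the uninjured difference as it is and alters only its test. Without LG/J replicate 4 the day 7 difference of Pfkp was called, at -0.85 (limma adjusted p = 0.0045), the same difference with another estimate of the spread. Pfkm was called higher in uninjured LG/J ear, by 0.78 (SE 0.20, limma adjusted p = 0.0166), and at day 7 the difference was 0.34 (limma adjusted p = 0.239). The uninjured groups overlapped through SM/J replicate 2, and the call did not survive the omission of LG/J uninjured replicate 3 or SM/J uninjured replicate 4 or 5 (0.58 to 1.07). Of the 15 skeletal muscle markers, 8 were also higher in uninjured LG/J ear and 1 at day 7, and their part in this difference was not tested.

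Aldoc, whose levels are given above, was higher in LG/J by 0.52 at day 7 and 0.53 in uninjured ear (limma adjusted p = 0.0136 and 0.0139), without overlap in either. A second Aldoc probe near background gave -0.19 and 0.01, and with both averaged neither difference was called, at 0.17 and 0.27. Its day 7 call did not survive the omission of LG/J day 7 replicate 1 or 2 or SM/J day 7 replicate 1 (0.44 to 0.62), and its uninjured call that of LG/J uninjured replicate 1 or SM/J uninjured replicate 5 (0.47 to 0.56). Slc2a1 had uninjured levels of 11.38, 11.65 and 12.49 in LG/J, against 10.85, 11.01 and 11.03 in SM/J, with replicate 4 the highest of LG/J. At day 7 its levels were 11.88, 11.80 and 11.81 in LG/J, against 11.52, 11.43 and 11.52 in SM/J. LG/J was higher throughout, by 0.88 in uninjured ear (limma adjusted p = 0.0108) and by 0.34 at day 7 (limma adjusted p = 0.263), and without replicate 4 the uninjured difference was 0.56. Slc2a3 was not called in uninjured ear with all arrays, at 0.45, and was called without that array, at 0.83 (limma adjusted p = 0.226 and 0.000447).

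Pdk1 encodes a kinase that restrains the entry of pyruvate into mitochondria. At day 7 its levels were 8.80, 8.79 and 8.62 in LG/J, against 10.12, 10.21 and 10.20 in SM/J. In uninjured ear they were 8.84, 8.99 and 9.41 in LG/J, against 10.24, 10.47 and 10.45 in SM/J. The strains did not overlap, and LG/J replicate 4 was the highest LG/J array. LG/J was lower by 1.44 on the log2 scale at day 7 (SE 0.15, limma adjusted p = 2.03e-05) and by 1.31 in uninjured ear (SE 0.15, limma adjusted p = 5.66e-05). A second Pdk1 probe was below the background limit on all 6 LG/J arrays and above it on all 6 SM/J arrays.

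The genes of oxygen sensing were lower in LG/J where they were called. Hif1a had day 7 levels of 5.56, 5.86 and 5.84 in LG/J, against 8.50, 8.78 and 8.81 in SM/J. In uninjured ear it had 5.79, 5.19 and 8.54 in LG/J, against 8.07, 9.27 and 9.28 in SM/J. The LG/J arrays other than uninjured replicate 4 lay at or near background, and that array lay within the SM/J range. The difference was -2.95 at day 7 (SE 0.62, limma adjusted p = 0.0044) and -2.36 in uninjured ear (SE 0.62, limma adjusted p = 0.0162), and without uninjured LG/J replicate 4 the uninjured difference was -3.38. At day 7 and in uninjured ear alike, 2 of 3 LG/J arrays passed the background limit, so the sizes of these differences are not resolved, and with both Hif1a probes averaged they were -1.34 and -1.13. The uninjured call did not survive the omission of LG/J uninjured replicate 1 or 3 or SM/J uninjured replicate 4 or 5, down to -1.70.

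The other Hif1a probe did not show this difference. It lay near background on all arrays, with day 7 levels of 5.91, 6.28 and 5.96 in LG/J, against 5.69, 6.14 and 5.52 in SM/J. The strain difference of that probe was 0.27 at day 7 and 0.10 in uninjured ear (limma adjusted p = 0.268 and 0.734 in a fit with every probe as a feature). Which Hif1a transcripts or alleles each probe detects was not tested, and no probe sequence was used here.

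Egln1 had day 7 levels of 6.15, 5.76 and 5.86 in LG/J, against 6.29, 7.15 and 7.50 in SM/J. Its uninjured levels were 6.01, 6.10 and 6.73 in LG/J, against 7.28, 7.36 and 7.45 in SM/J. LG/J was lower without overlap in both, by 1.06 at day 7 and 1.08 in uninjured ear on the log2 scale (limma adjusted p = 0.0113 and 0.0109). A second probe gave -0.61 and -1.02, and the remaining one gave -0.44 and -0.42. The uninjured call did not survive the omission of LG/J uninjured replicate 1 or 3 (-1.31 to -0.95).

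Epas1, which encodes the HIF alpha subunit best known from endothelium, had uninjured levels of 6.22, 5.80 and 7.10 in LG/J, against 6.97, 7.79 and 7.44 in SM/J, and replicate 4 of LG/J overlapped SM/J. At day 7 it had 6.34, 5.98 and 6.49 in LG/J, against 6.44, 6.53 and 6.80 in SM/J. The difference was -1.03 in uninjured ear (limma adjusted p = 0.0218) and -0.32 at day 7 (limma adjusted p = 0.437). The uninjured call did not survive the omission of LG/J uninjured replicate 1 or 3 or SM/J uninjured replicate 4 or 5 (-1.39 to -0.74).

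Probes of the same gene also disagreed between the strains for Tpi1 and P4ha1. Tpi1, the triosephosphate isomerase gene, had day 7 levels of 14.04, 13.92 and 13.97 in LG/J, against 13.51, 13.47 and 13.54 in SM/J. Uninjured levels were 13.65, 13.88 and 13.50 in LG/J, against 13.39, 13.12 and 13.14 in SM/J. By this brightest probe LG/J was higher without overlap, by 0.47 and 0.46 (limma adjusted p = 0.0188 and 0.0227). A second bright probe gave 0.20 and 0.27, and the remaining, dimmer probe gave -1.44 and -1.16. The day 7 call did not survive the omission of LG/J day 7 replicate 1 or SM/J day 7 replicate 1 or 2 (0.44 to 0.50), and the uninjured call that of LG/J uninjured replicate 1 or 3 or SM/J uninjured replicate 4 or 5 (0.36 to 0.55).

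For P4ha1 the brightest probe was higher in uninjured LG/J ear by 0.68 (SE 0.22, limma adjusted p = 0.0419), with overlap through LG/J replicate 4, and its day 7 difference was -0.13. A second P4ha1 probe had day 7 levels of 6.26, 5.97 and 6.45 in LG/J, against 6.71, 7.09 and 7.27 in SM/J, which is lower in LG/J by 0.80 on the log2 scale. In uninjured ear that probe was lower by 0.83. When all probes of a gene were averaged, the called differences of Tpi1 and P4ha1 changed sign, to -0.26 at day 7 and -0.14 in uninjured ear for Tpi1 and to -0.07 in uninjured ear for P4ha1. The average also ended the uninjured calls of Pfkm, Car9 and P4ha2, at 0.50, 0.30 and 0.36, and the SM/J injury call of Hilpda, at -0.48. The P4ha1 call was also lost in 9 of the 12 fits without 1 array, those without any LG/J day 7 array, LG/J uninjured replicate 1 or 3, SM/J day 7 replicate 1 or 2, or SM/J uninjured replicate 4 or 5 (0.48 to 0.95).

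**Figure D5:**
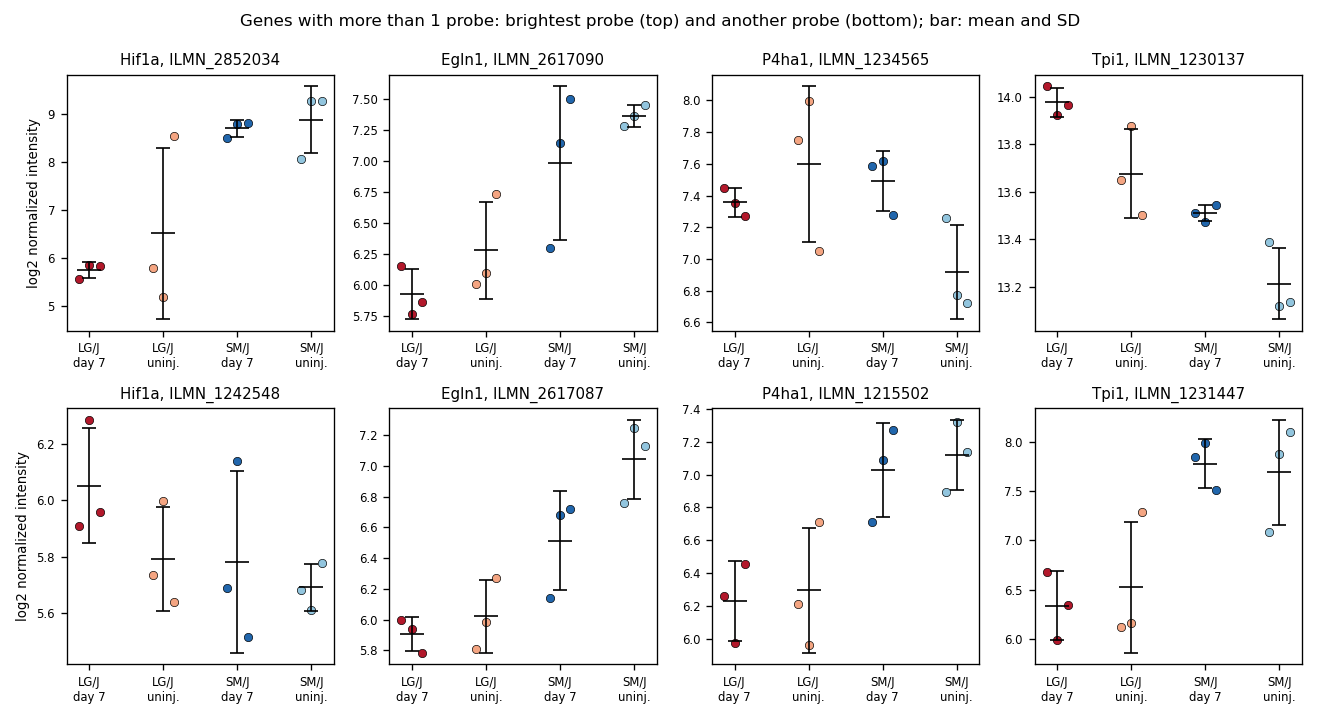
Log2 normalized intensity of 2 probes each of Hif1a, Egln1, P4ha1 and Tpi1 (upper row: brightest probe; lower row: another probe of the same gene) on the 12 arrays by group; points are arrays, long ticks are group means and bars are SD (n = 3). The Egln1 probes order the strains alike, whereas the lower probes of P4ha1 and Tpi1 are higher in SM/J and the lower Hif1a probe shows no gap between the strains.

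The remaining strain calls were in uninjured ear. Car9 was higher in LG/J by 0.53 (limma adjusted p = 0.034) and P4ha2 by 0.45 (limma adjusted p = 0.0392), and Hilpda was lower by 0.42 on the log2 scale (limma adjusted p = 0.0382). All 3 genes had groups without overlap, by the levels given above. Car9 lost its call without LG/J uninjured replicate 1 or 3 or any 1 of the uninjured SM/J arrays (0.43 to 0.70). The P4ha2 call was lost when replicate 1 or 3 of day 7 LG/J, replicate 3 of uninjured LG/J, replicate 2 of day 7 SM/J or replicate 4 or 5 of uninjured SM/J was left out (0.30 to 0.55). For Hilpda these were replicate 1 or 3 of day 7 or of uninjured LG/J, replicate 2 of day 7 SM/J and replicate 4 or 5 of uninjured SM/J (-0.52 to -0.35). The 13 members called nowhere ranged from -0.48 (Pgam1) to 0.41 (Slc16a1) at day 7 and from -0.56 (Adm) to 0.40 (Aldoa) in uninjured ear.

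Leaving out an array that stands apart also added strain calls. Without uninjured LG/J replicate 4, the day 7 differences of Slc2a1, Pgk1, Pgam1, Car9 and Adm were called at their values with all arrays, 0.34, -0.41, -0.48, 0.43 and -0.40 (limma adjusted p = 0.0312, 0.0292, 0.0329, 0.0227 and 0.0357). In uninjured ear that setting called Aldoa, Pgk1, Pgam1, Ldhb and Pfkfb4, at 0.46, -0.51, -0.50, 0.39 and 0.37, beside 0.40, -0.38, -0.38, 0.35 and 0.32 with all arrays. Without uninjured SM/J replicate 2, Hk1, Aldoa, Gapdh and Pgam1 were called in uninjured ear, at -0.71, 0.54, 0.44 and -0.59, where Hk1 had -0.37 and Gapdh 0.31 with all arrays, and at day 7 Pfkp and Pgam1 were called (limma adjusted p = 0.0433 and 0.0221). Without both arrays the day 7 difference of Pfkm was called as well, at 0.34 (limma adjusted p = 0.0491).

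Other genes of the same pathways were read from lists of 40 genes each. Of 28 tested genes of glycolysis, glycogen and the pentose phosphate pathway, 2 rose and 5 fell beside the LG/J punch, and 2 rose and 2 fell beside the SM/J punch, which is 25% and 14.3% called, beside 10.4% and 10.3% of all features. The list is not separate from the cell type markers above. Eno3, Pgam2 and Pygm are also among the skeletal muscle markers, and Slc2a4 is among the adipocyte markers. Hk3, a hexokinase typical of leukocytes, rose by 1.46 in LG/J and 0.99 in SM/J, and Slc2a6, a sugar transporter, rose by 1.09 in LG/J and 1.45 in SM/J. Slc2a4, the insulin-responsive glucose transporter of muscle and fat, fell by 1.07 in LG/J and 0.81 in SM/J. The muscle enolase Eno3 fell by 1.06 in LG/J, and the glycogen phosphorylase Pygb fell by 0.79 in SM/J.

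Of 35 tested genes of the hypoxia response outside the members, 6 rose and 1 fell in LG/J, and 7 rose and 1 fell in SM/J, which is 20% and 22.9% called, beside 10.4% and 10.3% of all features. The rises in LG/J were led by Angptl4, a secreted inhibitor of lipoprotein lipase, with 1.36, by Fam162a, a mitochondrial protein gene induced by HIF, with 1.35, by the haem oxygenase Hmox1 with 1.16 and by the chemokine receptor Cxcr4 with 1.06. In SM/J they were led by Cxcr4 with 1.89, Hmox1 with 1.58, Angptl4 with 1.38 and the hormone gene Stc1 with 1.37. A dimmer Angptl4 probe gave 0.33 in LG/J and -0.04 in SM/J. Fam162a had levels of 12.70, 12.33 and 12.51 at day 7 in LG/J, against 10.87, 11.15 and 11.47 in uninjured LG/J ear, with no overlap. Neither list had a gene whose change was called different between the strains.

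In the strain comparisons 6 of 28 of these metabolic genes were higher and 2 lower in LG/J at day 7, and 5 were higher and 1 lower in uninjured ear, which is 28.6% and 21.4% called, near the 24.6% and 19.8% of all features. Pdhb, a subunit of pyruvate dehydrogenase, the enzyme that Pdk1 inhibits, was lower in LG/J by 1.47 at day 7 and by 1.62 in uninjured ear on the log2 scale (limma adjusted p = 0.0235 and 0.0168). It had uninjured levels of 8.74, 9.04 and 10.99 in LG/J, against 10.67, 11.47 and 11.49 in SM/J, and again LG/J replicate 4 lay with SM/J. Of its other probes, one gave -1.19 at day 7 and -1.30 in uninjured ear, and the dimmest gave -0.46 and 0.48. At day 7 Adpgk was higher in LG/J by 1.02 and Pgam2 by 0.93, and Gbe1 was lower by 0.96 on the log2 scale. A dimmer Adpgk probe gave -0.17. In uninjured ear Pgam2 was higher by 1.44, Fbp2 by 0.91 and Pgm1 by 0.81.

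Of the 35 hypoxia genes, 6 were higher and 5 lower in LG/J at day 7, and 4 were higher and 3 lower in uninjured ear, which is 31.4% and 20% called, beside 24.6% and 19.8% of all features. Vhl, which encodes the protein that directs HIF alpha to destruction, had the largest difference. Its day 7 levels were 8.43, 8.09 and 8.43 in LG/J, against 5.38, 5.68 and 5.55 in SM/J, and its uninjured levels were 8.55, 8.21 and 8.08 in LG/J, against 5.66, 5.58 and 5.72 in SM/J. No SM/J array was above the background limit for this probe. A bound was therefore set from the LG/J group mean and the mean background limit of the SM/J arrays. By this bound the mean signal of the Vhl probe was at least 5.73-fold higher in LG/J at day 7 (limma adjusted p = 3.32e-08). In uninjured ear it was at least 5.64-fold higher (limma adjusted p = 6.49e-08). Only this Vhl probe was named, so no second probe bears on it. Which Vhl transcripts or alleles the probe detects was not tested, and no probe sequence was used here. Cxcr4, Tfrc and Stc1 were lower in LG/J at day 7, by 0.83, 0.80 and 0.79 on the log2 scale, and in uninjured ear Lox was lower by 1.37, whereas Edn1 was higher by 0.88 and Mif by 0.83.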

How the data were processed

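Ear RNA of 12 mouse samples was measured on Illumina bead arrays. The deposited value of each probe is a mean bead intensity, linear and not normalized between arrays, and the submitters' processing notes name BeadStudio. The authors' deposited series table of normalized intensities was used as an alternative only. Detection p-values were not in the files used here, so neqc was not run. Intensities were corrected with normexp (offset 16), log2 transformed and quantile normalized with limma 3.58.1 in R 4.3.3. The dimmest 25% of probes were removed, and a gene was represented by its brightest probe. Of the probes, 23604 had 1 symbol, 12 had several and 21665 had none here. Models on 4 group means were fitted to all 12 arrays (8 residual degrees of freedom), with 2-sided moderated tests, Benjamini-Hochberg adjustment over 24690 features and a threshold of 0.05. With 3 arrays a group, an exact permutation test could not go below 0.1, and the number of arrays limits the precision. The background limit is the 95% quantile of noise, estimated from the lower side of the mode of each array. Every member called in at least 1 comparison is named with its value on every array, and from the other lists up to 4 called genes with the largest change in each comparison. The members and lists were chosen with earlier results of these data known. The procedure was tested on simulated data. Alternatives covered background correction, scaling, filter, choice of probe, model and each array left out.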

Additional observations from a re-analysis of the deposited data

How the results depend on the processing

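The number of arrays and, for Slc16a1, Slc16a3, Hif1a, Epas1 and Egln1, signal near background limit these results. The 45 called member changes were recomputed under up to 25 settings. Of 1125 values, 947 kept direction and call, 175 kept direction and lost the call, and 3 reversed under the mean of all probes of a gene (Tpi1 -0.26 at day 7 and -0.14 uninjured, P4ha1 -0.073 uninjured). Of 248 recomputed counts of members, 184 were within 1.5 times the reported ones, and the causes of the others were not tested. The arrays left out in the setting without both arrays that stand apart were picked from these same data. Deviations from the group means correlated with r between -0.09 and 0.19 over 10 same-number pairs of arrays. No different-number pairs were read beside them, so these values do not decide whether replicate numbers pair the samples.

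Injury in LG/J, members higher (6): median scaling 1, mean of all probes 3, only the groups compared 3, without 1 array 3 to 7. Members lower (2): no background correction 4, no filter 1, array weights 4, only the groups compared 1, replicate block 1, without 1 array 1 to 2. All features (2566): array weights 4344, only the groups compared 1567, without 1 array 1413 to 2754. Injury in SM/J, members higher (10): median scaling 4, replicate block 5, without 1 array 7 to 12. Members lower (3): mean of all probes 1, array weights 6, replicate block 0, both arrays out 6, without 1 array 0 to 5. All features (2534): array weights 5692, replicate block 1243, both arrays out 5076, without 1 array 1454 to 4456.

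Interaction, members higher (0): array weights 1, both arrays out 1, without 1 array 0 to 0. Members lower (0): array weights 4, both arrays out 3, without 1 array 0 to 1. All features (105): array weights 836, replicate block 10, both arrays out 1245, without 1 array 14 to 352.

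Strain at day 7, members higher (5): median scaling 9, mean of all probes 3, array weights 8, only the groups compared 8, both arrays out 8, without 1 array 3 to 7. Members lower (3): offset 50, no background correction, spread by level and replicate block 5 each, deposited table, dimmest 50% removed and mean of all probes 6 each, array weights, only the groups compared and both arrays out 7 each, without 1 array 3 to 7. All features (6083): array weights 9142, without 1 array 3597 to 8327. Strain in uninjured ear, members higher (10): mean of all probes 5, array weights 16, only the groups compared 4, replicate block 4, without 1 array 4 to 14. Members lower (6): array weights 10, only the groups compared 2, without 1 array 1 to 8. All features (4887): array weights 10007, only the groups compared 2208, replicate block 2336, both arrays out 8748, without 1 array 2521 to 8176.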
